A study of Mus musculus with 49 samples.

Results

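The proteasome is the barrel-shaped protease that breaks down most ubiquitin-tagged proteins in the cytosol and nucleus of mammalian cells. The mRNAs that bear proteasome names (symbols Psma, Psmb, Psmc, Psmd, Psme, Psmf or Psmg followed by a number) were described here in mouse embryonic stem (mES) cells in which p53 was activated and the bromodomain protein Trim24 was present, degraded or mutated. The gene tables held 20489 genes, of which 50 carried such a symbol, and 48 were taken after Psmb8 and Psmb9, interferon-inducible catalytic subunits, had been set apart. All 48 were chosen by symbol.

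All cells were TC-1 mES cells of the 129S6/SvEvTac background, kept in serum with LIF on gelatin. p53 was activated with doxorubicin (1 µM), a DNA-damaging agent, and Trim24 fused in both alleles to an FKBP12(F36V) degron with a V5 tag was degraded with dTAG13 (500 nM), given for the same hours as doxorubicin. The degron lines and the mutant line were picked clones, so a group stands for 1 clone rather than for many. The time course held cells at 0 h, cells with doxorubicin and dTAG13 (Trim24 degraded) and cells with doxorubicin alone (Trim24-expressing) at 2, 4, 8 and 12 h, with 3 libraries per group. Uninduced degron cells, which had no doxorubicin, were profiled with Trim24 degraded (dTAG13 for 4 h) and with Trim24 present, 3 libraries each. Wild-type (WT) cells were profiled after 4 h of doxorubicin and uninduced, 2 libraries each. A last experiment, called the RING-domain experiment below, held 4 libraries each of degraded, ligase-null and Trim24-expressing cells, all after 4 h of doxorubicin; ligase-null (LigNull) Trim24 carries cysteine-to-alanine substitutions in its RING domain, the part of the protein that acts as a ubiquitin ligase. In all, 49 libraries in 16 groups were measured by RNA sequencing.

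Proteasome background is needed to read the gene groups. The 20S core is a stack of 4 rings: outer rings of alpha subunits that form the gate, and inner rings of beta subunits, of which Psmb5, Psmb6 and Psmb7 carry the chymotrypsin-like, caspase-like and trypsin-like activities. The 19S regulatory cap holds a ring of ATPases, Psmc1 to Psmc6, that unfold the substrate and push it into the core, and non-ATPase subunits that bind ubiquitin chains, cut them off and hold the cap together. Dedicated chaperones assemble the core (Psmg1 to Psmg4) and the base of the cap (Psmd5, Psmd9 and Psmd10), and alternative activators (Psme1 to Psme4) can bind the core in place of the cap. In many cells a shortage of proteasome activity leads to joint transcription of subunit genes through the factor Nfe2l1, which binds antioxidant response elements. High proteasome activity is known of human embryonic stem cells, and p53 itself is a proteasome substrate, tagged by the ubiquitin ligase Mdm2.

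By role, the 48 genes comprised 8 alpha subunits (with the testis form Psma8), 7 constitutive beta subunits, 2 inducible or tissue-restricted beta subunits (Psmb10 of the immunoproteasome and Psmb11 of the thymus), 6 ATPases, 11 non-ATPase cap subunits, 3 cap chaperones, 4 core chaperones, 6 activators or inhibitors (Psme1, Psme2, Psme2b, Psme3, Psme4 and Psmf1) and 1 gene, Psmc3ip, that shares the name only and acts in meiotic recombination. Psmb11 stayed at or below 0.6 CPM in every library and passed the filter on low values in 6 of 14 comparisons; the other 47 passed it in all 14.

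Reads over genes ranged from 14422098 to 35185256 per library, with a median of 19520026. The deposited values are log2 CPM (reads over the library's scaled total) with TMM factors as scale, and these factors ranged from 0.8855 to 1.3073. The labels were checked against the values where these allow it. Mdm2, a p53 target, stood at 966.2 ± 32.0 CPM after 4 h of doxorubicin in Trim24-expressing cells, against 181.0 ± 4.64 CPM at 0 h (SD, n = 3 each). The 3 uninduced libraries with Trim24 present carry a sample attribute of activated p53 that goes against their titles; their Mdm2 level of 184.4 ± 5.55 CPM lay near that of the uninduced degraded cells (175.4 ± 3.76 CPM) and they are treated as uninduced. The ligase-null libraries carry the genotype label of degron-tagged Trim24 and were grouped by their titles, and mRNA levels cannot check that grouping. Trim24 mRNA cannot check the degron, which removes the protein. The replicates are described as biological, but whether they came from separate cultures is not stated, and the p-values measure only the spread between these libraries. In bulk RNA, fewer cells of a type and less RNA per cell cannot be told apart.

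At 0 h most of the genes were among a range of well-expressed transcripts, given here per kilobase of annotated exon (GENCODE M21) so that genes can be compared. The median over the 48 genes was 75.7 CPM per kb. The ATPases lay highest, from 48.2 CPM per kb for Psmc2 to 247.7 CPM per kb for Psmc5. The beta subunits ran from 53.2 (Psmb7) to 237.1 CPM per kb (Psmb6), the alpha subunits from 8.79 (Psma8) to 175.9 CPM per kb (Psma6), and the non-ATPase cap subunits from 23.9 (Psmd11) to 188.2 CPM per kb (Psmd12). Per kilobase of annotated exon, core subunits that share 1 particle in fixed numbers differed several-fold in mRNA level. The length used covers the exons of all annotated transcripts of a gene and can exceed that of the expressed transcript. For Psma2 it was 3673 bases, while an annotated Psma2 transcript has 1353 bases. The order of single genes can thus depend on annotation, and how far was not tested. Chaperones and accessory factors lay lower as groups. The cap chaperones had a median of 21.1 CPM per kb, the activators and the inhibitor 32.9 CPM per kb, and the core chaperones 62.0 CPM per kb. The inducible subunit Psmb10 stood at 32.6 CPM per kb, far above its immunoproteasome partners Psmb9 (0.449 CPM per kb) and Psmb8 (0.0717 CPM per kb).

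Some of these levels rest on reads that could belong elsewhere. For 14 genes (Psma2, Psma3, Psma4, Psma5, Psmb3, Psmb5, Psmc1, Psmd1, Psmd11, Psmd2, Psme1, Psme2, Psme2b and Psmg3) another transcript, mostly of a processed pseudogene, matches at 95% identity or more over at least 200 bases, and reads with several matches were placed at random. Psme2 and Psme2b are the extreme case, with 99.4% identity over 794 bases, and their values are uncertain as single genes. For 5 genes a transcript of another gene matches on the opposite strand, at 100% identity for Psmb7, Psmc3ip and Psmd13, at 96.3% for Psma3 and at 97.9% for Psmd11, and the sources used here do not state whether counting used strand.

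Promoters were searched because Nfe2l1 and Nfe2l2 bind antioxidant response elements; the sequences are from RefSeq (GRCm38.p6), 250 bases before the start site, read on both strands. An entry was found for 40 of the 48 genes. The core TGACNNNGC was present in 5 of them (12.5%; Psmb5, Psmb6, Psmc6, Psmd12 and Psmd9), against 10.2% of all 32851 promoter windows. CCAAT, the box bound by the trimeric factor NF-Y, was present in 14 (35.0%), against 33.8% of all windows. The letters CCGGAAGT, a site for ETS-family factors, were present in 5 (12.5%; Psmc1, Psmc2, Psmd12, Psmd6 and Psme4), against 2.88% of all windows, and GATGGCGG, a site for Yy1, in 0 of the 40, against 0.874% of all windows. These matches are descriptions of letters and not of binding. A proteasome gene counts when any of its windows matches, while the share over all is per window. The percentages are therefore not strictly alike, and a gene with more than 1 window has more chances to match. The 2 catalytic subunit genes with a match to the antioxidant response core are shown because their mRNA levels are followed below; capitals mark the match, and both sequences are written 5′ to 3′ on the strand of the gene.
Psmb5, chr14:54618023-54618245, minus strand, ending before the annotated exon, match beginning 47 bases before the start site: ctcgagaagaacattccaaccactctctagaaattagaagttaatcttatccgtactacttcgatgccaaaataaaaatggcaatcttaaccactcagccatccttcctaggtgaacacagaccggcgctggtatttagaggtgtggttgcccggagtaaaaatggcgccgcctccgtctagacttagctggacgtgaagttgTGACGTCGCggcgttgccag
Psmb6, chr11:70525107-70525356, plus strand, match beginning 9 bases before the start site: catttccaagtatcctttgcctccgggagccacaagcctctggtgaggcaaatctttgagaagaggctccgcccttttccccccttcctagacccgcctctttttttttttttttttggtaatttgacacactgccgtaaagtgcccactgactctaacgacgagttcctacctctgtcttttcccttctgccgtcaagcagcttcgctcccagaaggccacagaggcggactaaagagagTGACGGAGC

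The first question was how proteasome mRNAs moved after p53 activation in Trim24-expressing cells. Few of them moved in the first 4 h. A gene was past the p limit when its limma adjusted p was below 0.01, and past both limits when its log2 fold change was also 0.75 or more in size. After 2 h of doxorubicin 0 of 47 tested genes were past the p limit by limma and 0 past both limits by limma-voom on the recovered reads, against 3.74% of all tested genes past both limits; with an unadjusted p below 0.05, 1 was higher and 0 lower, against 28.5% of all tested genes in either direction. After 4 h again 0 genes passed both limits, by limma or by limma-voom, against 18.7% of all tested genes, while with an unadjusted p below 0.05, 5 were higher and 10 lower, against 63.2% of all tested genes in either direction. By the p limit alone, 2 genes were higher (23.6% of all tested genes) and 6 lower (25.6% of all tested genes). The median log2 fold change at 4 h was −0.01 over the proteasome genes and over all tested genes alike. The direction of the small changes at 4 h depends on the scaling: with quantile normalization 20 were higher and 4 lower past the p limit, with scaling to total reads 12 were higher and 5 lower, and with each library centred on its median 1 was higher and 10 lower.

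The most negative change at 4 h belonged to Psmd5, the cap chaperone that holds the ATPase ring before assembly. Psmd5 stood at 139.3, 135.8 and 129.1 CPM after 4 h of doxorubicin, against 184.0, 176.0 and 191.1 CPM at 0 h, a log2 fold change of −0.45 (SE 0.046, limma adjusted p = 7.78e-08). All 3 activated libraries lay below all 3 at 0 h. Psmd7, a scaffold subunit paired with the deubiquitinase of the lid, stood at 267.3, 259.8 and 270.4 CPM after 4 h, against 333.4, 332.2 and 334.8 CPM at 0 h, a log2 fold change of −0.33 (SE 0.037). Its 3 values at 4 h also lay below every value at 0 h. Psmb10, Psmg2, Psmc4 and Psme3 were the other 4 lower genes, with log2 fold changes between −0.28 and −0.15, and Psmc1 (0.23) and Psme2 (0.26) were the 2 higher ones. The 2 counts are small enough that single libraries matter: without replicate 1 or 2 at 4 h or replicate 1 at 0 h, 1 gene was higher instead of 2.

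WT cells without a degron gave a separate measurement of 4 h of activation. Again 0 of 48 genes passed both limits, by limma or limma-voom, against 10.3% of all tested genes, and 0 passed the p limit; with an unadjusted p below 0.05, 1 was higher and 5 lower, against 44.0% of all tested genes in either direction. The gene with the most negative change was again Psmd5, at 157.1 and 152.4 CPM in activated WT cells, against 187.0 and 177.3 CPM in uninduced WT cells (log2 fold change −0.23, SE 0.086, limma adjusted p = 0.020). Both activated libraries lay below both uninduced ones, but the difference did not pass the threshold. Past the p limit, median centring gave 1 lower gene and total-read scaling 1 higher. Without uninduced WT replicate 2, 1 gene was higher and 2 were lower past the p limit, but this leaves 1 library in that group, whose spread is then assumed to be that of the activated pair. Activation in WT cells minus activation in the degron line gave a difference past the p limit for 0 of 48 genes (unadjusted p below 0.05, 1 higher and 1 lower), against 4.20% of all tested genes; this limma contrast was chosen after seeing the data, and limma-voom was not run on it.

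By 8 h more of the genes were lower against 0 h than at 4 h, though 8 h was not compared directly with 4 h. After 8 h, 9 of 47 genes were lower past both limits, a share near the 18.3% of all tested genes, and 0 were higher. By limma-voom 10 were lower and 0 higher. Past the p limit alone, 36 genes were lower, against 37.2% of all tested genes, and 3 were higher, against 37.6% of all tested genes. After 12 h, 23 of 47 genes were lower past both limits, against 22.9% of all tested genes, and 1 (Psmc3ip) was higher, against 30.3% of all tested genes, and limma-voom gave the same counts. Past the p limit alone, 41 were lower, against 38.0% of all tested genes, and 4 were higher, against 40.1% of all tested genes. The median log2 fold change of the proteasome genes was −0.46 at 8 h (quartiles −0.70 and −0.22) and −0.70 at 12 h (quartiles −0.95 and −0.49), beside medians of 0.02 and 0.04 over all tested genes. At 12 h all 41 lower genes had 3 values below the 3 values at 0 h, as did 6723 of all 16402 tested genes.

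**Figure D1:**
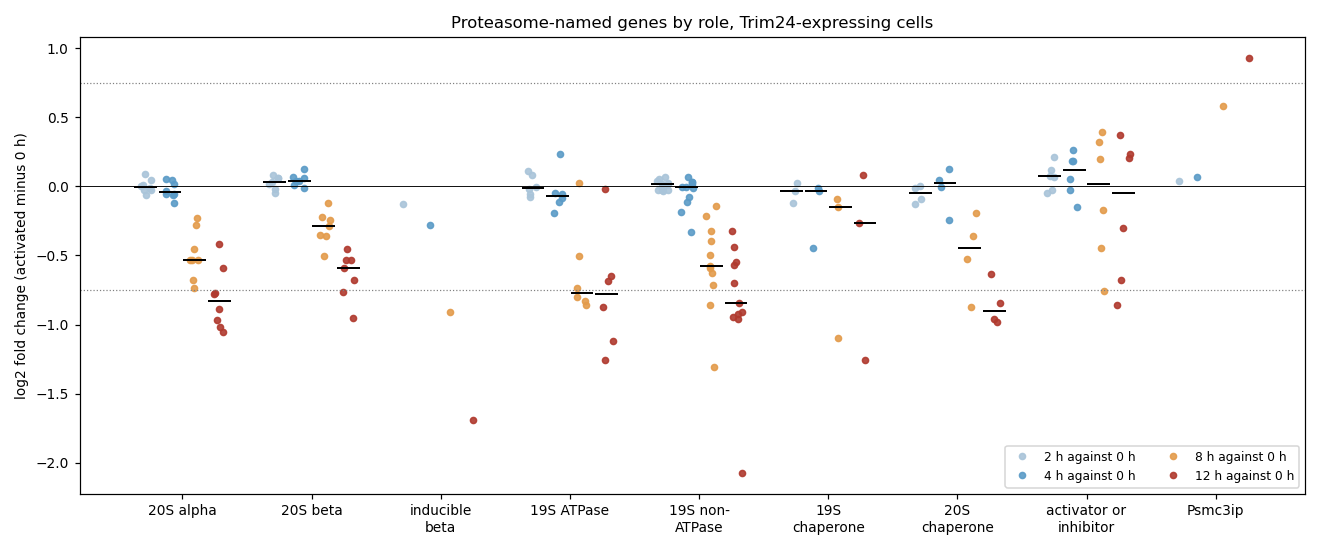
Log2 fold change of each proteasome-named gene (points) in Trim24-expressing cells after 2, 4, 8 and 12 h of doxorubicin minus 0 h, by role, with black bars for group medians and dotted lines at the fold limit of 0.75 on either side of 0 (3 libraries per group). Points at 2 and 4 h lie near 0, and at 12 h the core and cap subunits lie below 0 while 3 activator or inhibitor genes, Psmd10 and Psmc3ip lie above it.

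How far the genes fell depends on what the libraries are scaled to. TMM factors stood near 0.93 at 0 h, but between 1.14 and 1.17 in Trim24-expressing cells at 12 h, so that scaling to total reads alone moves the median of all tested genes to 0.32 at 12 h and 0.30 at 8 h. Under that scaling, chosen after seeing the data, the median of the proteasome genes was −0.38 at 12 h and −0.14 at 8 h, and relative to the median of all genes it was −0.70 and −0.43, beside −0.74 and −0.48 with TMM. Quantile normalization gave medians of −0.31 at 12 h and −0.08 at 8 h, which relative to all genes were −0.19 and 0.03. The lower genes past both limits at 12 h then numbered 5 with total-read scaling and 10 with quantile normalization instead of 23. At 8 h they numbered 2 with total-read scaling, 3 with quantile normalization and 16 with each library centred on its median, instead of 9. Past the p limit alone, total-read scaling gave 6 higher and 35 lower at 12 h and quantile normalization 6 higher and 31 lower, beside 4 and 41. At 8 h the split was 8 higher and 24 lower with total-read scaling and 15 higher and 19 lower with quantile normalization, beside 3 and 36. Of the genes lower at 12 h, Psme1 and Psmd9 changed sign with total-read scaling (to 0.02 and 0.05), and Psma4, Psmd2 and Psmd8 lay above 0 with quantile normalization. Psmc1 changed sign under both.

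**Figure D2:**
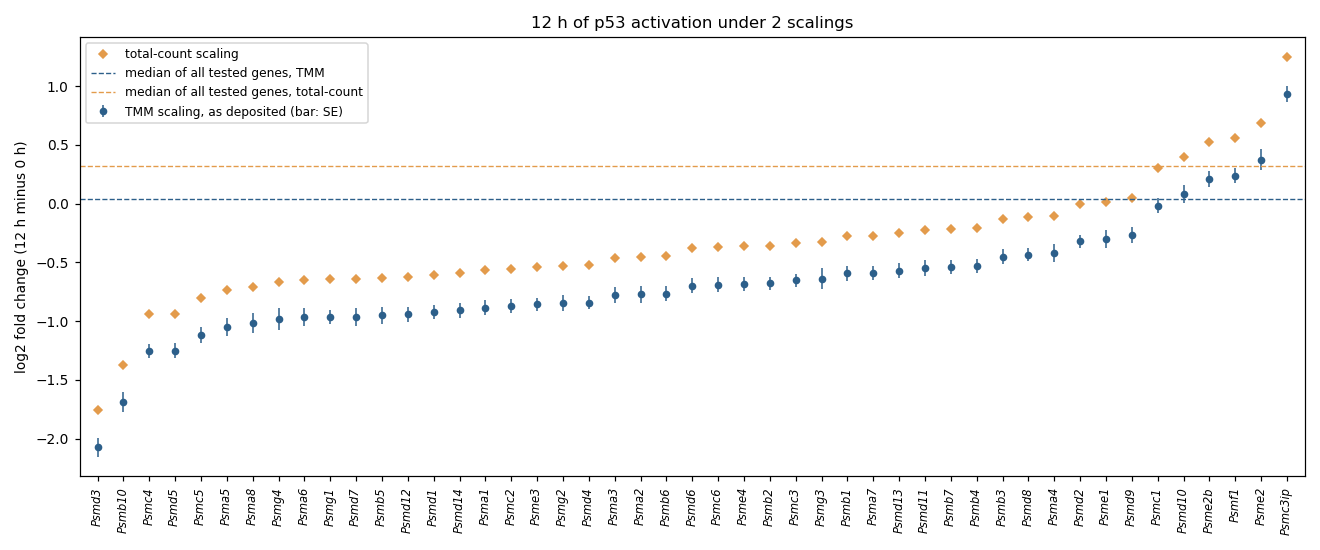
Log2 fold change at 12 h of doxorubicin minus 0 h in Trim24-expressing cells for 47 proteasome-named genes, ordered by size, with the deposited TMM scaling (circles, bars are SE) and with scaling to total reads (diamonds); dashed lines give the median of all tested genes under each. The series run in parallel from Psmd3 to Psmc3ip, and with total-read scaling every gene and the median of all genes lie higher.

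The summed level shows the same shift without a test. The 48 genes together made up 10450, 10330 and 10526 CPM at 0 h. In Trim24-expressing cells they summed to 10297, 10201 and 10165 CPM at 4 h, to 7836, 7166 and 7526 CPM at 8 h and to 6739, 6136 and 6121 CPM at 12 h. As a share of all reads over genes, with no TMM factor, the sum was 0.964 to 0.978% at 0 h, 0.860 to 0.879% at 8 h and 0.715 to 0.768% at 12 h. The libraries at 12 h lay below those at 8 h and those at 0 h on both scales.

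**Figure D3:**
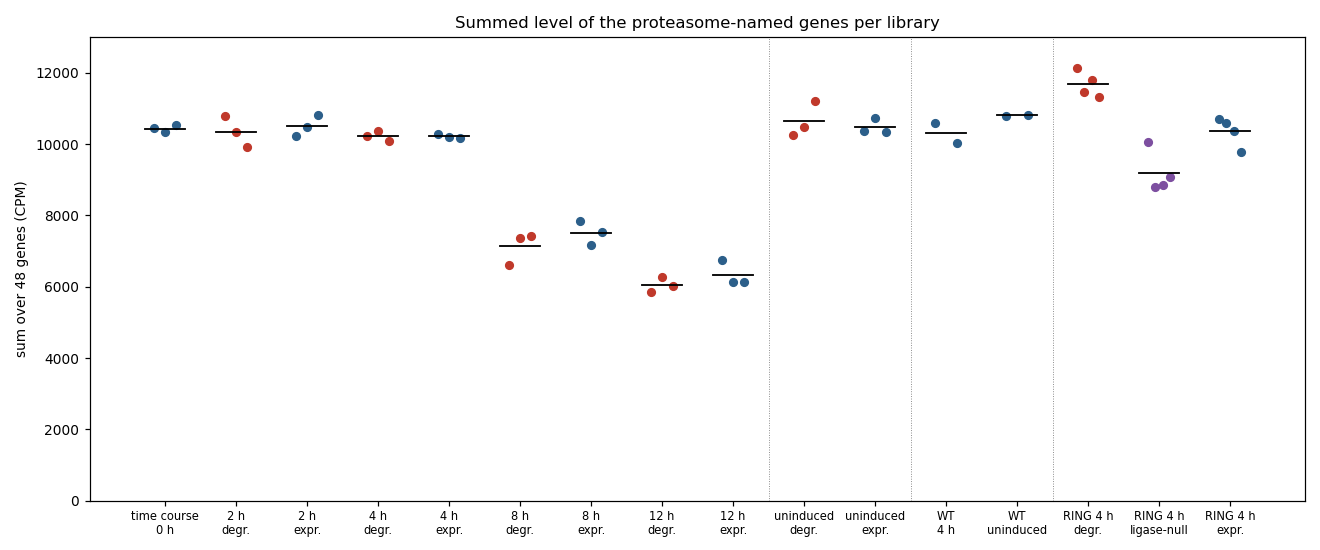
Summed level of the 48 proteasome-named genes in each library (points, CPM) with the group mean (bar); degr. is Trim24 degraded, expr. is Trim24 present, and dotted lines separate the time course, the uninduced degron cells, the WT cells and the RING-domain experiment. In the time course the sum lies between 9919 and 10814 CPM up to 4 h and lower at 8 and 12 h with Trim24 degraded or present, and in the RING-domain experiment the degraded libraries lie above the others.

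The catalytic beta subunits were lower together. Psmb5, which carries the chymotrypsin-like site that proteasome inhibitor drugs bind, stood at 38.7, 41.0 and 36.4 CPM at 12 h, against 73.0, 82.1 and 70.1 CPM at 0 h, and its log2 fold change was −0.95 (SE 0.073, limma adjusted p = 1.33e-09). Psmb6, the caspase-like subunit, stood at 277.3, 265.0 and 241.9 CPM at 12 h, against 430.4, 458.4 and 442.5 CPM at 0 h (log2 fold change −0.77, SE 0.061). Psmb7, the trypsin-like subunit, stood at 133.1, 122.8 and 120.1 CPM at 12 h, against 186.8, 174.0 and 184.7 CPM at 0 h (log2 fold change −0.54, SE 0.060). All 3 subunits had groups that did not overlap, and Psmb7 passed the adjusted p but not the fold limit. Of the 7 constitutive beta genes, 7 were lower past the p limit and 2 passed both limits, with a median log2 fold change of −0.59. The smallest change among them was in Psmb3, a structural subunit, at 149.2, 142.0 and 139.6 CPM at 12 h, against 181.2, 210.9 and 197.6 CPM at 0 h (−0.45, SE 0.064).

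The alpha ring had a lower median. Of 8 alpha genes, 8 were lower past the p limit and 6 past both limits, with a median log2 fold change of −0.83. Psma5 stood at 52.5, 42.6 and 43.4 CPM at 12 h, against 95.01, 93.7 and 98.4 CPM at 0 h (−1.05, SE 0.075). Psma4, the least changed of the ring, stood at 191.9, 146.6 and 164.6 CPM at 12 h, against 228.3, 219.7 and 221.0 CPM at 0 h (−0.42, SE 0.078). The testis form Psma8, low throughout, had 10.95, 10.8 and 10.2 CPM at 12 h, against 23.0, 21.2 and 21.5 CPM at 0 h (−1.02, SE 0.088).

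The inducible subunits of the core parted. Psmb10, which takes the place of Psmb7 in the immunoproteasome, had one of the lowest fold changes of all 47 genes: 18.5, 17.4 and 15.2 CPM at 12 h, against 51.6, 59.6 and 55.5 CPM at 0 h, a log2 fold change of −1.69 (SE 0.085, limma adjusted p = 3.73e-12). It was lower already at 8 h, with 27.9, 29.2 and 31.0 CPM (−0.91, SE 0.079). Psmb9, which takes the place of Psmb6 in the same particle, went the other way, with 13.2, 13.3 and 13.6 CPM at 12 h, against 1.60, 1.52 and 1.81 CPM at 0 h (2.78, SE 0.126). Psmb8, the partner that replaces Psmb5, averaged 0.293 ± 0.157 CPM at 12 h and 0.242 ± 0.0481 CPM at 0 h (SD, n = 3 each) and did not pass the test (limma adjusted p = 0.684).

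**Figure D4:**
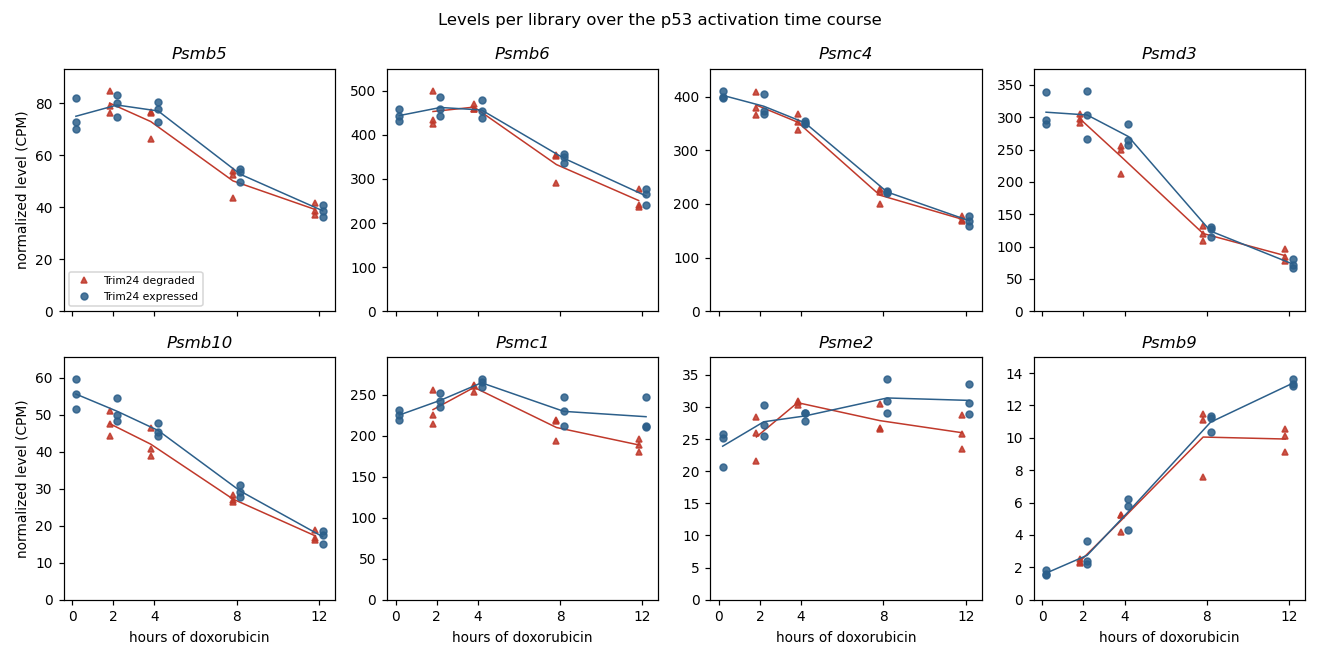
Levels (CPM) of 8 genes in each library of the time course against hours of doxorubicin, with Trim24 degraded (red triangles) and Trim24-expressing cells with 0 h (blue circles); lines join group means. The means of Psmb5, Psmb6, Psmc4, Psmd3 and Psmb10 are lowest at 12 h with Trim24 degraded or expressed, while in Trim24-expressing cells Psmc1 lies near its 0 h level at 12 h, Psme2 lies above it and Psmb9 is highest at 12 h.

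In the ATPase ring the members differed among themselves. Psmc4 stood at 178.2, 169.1 and 158.7 CPM at 12 h, against 399.1, 397.7 and 411.6 CPM at 0 h (log2 fold change −1.25, SE 0.059, limma adjusted p = 1.25e-12), and Psmc5 at 168.5, 140.3 and 168.8 CPM at 12 h, against 346.3, 353.7 and 335.7 CPM at 0 h (−1.12, SE 0.069). Psmc1, a subunit of the same ring in the same number, stood at 246.6, 210.4 and 212.1 CPM at 12 h, against 225.3, 219.1 and 230.7 CPM at 0 h (−0.02, SE 0.065, limma adjusted p = 0.821). The Psmc1 groups overlapped, and Psmc1 is one of the genes with a near-identical pseudogene. The other 5 ATPase genes were lower past the p limit, 3 of them past both limits, and 3 ATPases (Psmc2, Psmc4 and Psmc5) were among the 9 genes already lower past both limits at 8 h.

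The lowest fold change belonged to the cap scaffold. Psmd3, a lid subunit, stood at 70.7, 66.6 and 81.5 CPM at 12 h, against 295.4, 339.3 and 289.0 CPM at 0 h (log2 fold change −2.07, SE 0.078, limma adjusted p = 1.30e-13). At 4 h it had been at 289.6, 256.6 and 264.8 CPM, and at 8 h at 127.4, 114.1 and 130.2 CPM, where its log2 fold change was −1.31 (SE 0.066). Psmd4, the ubiquitin receptor of the cap, stood at 144.0, 138.6 and 135.9 CPM at 12 h, against 248.0, 259.4 and 244.6 CPM at 0 h (−0.84, SE 0.056). Psmd2, a large base subunit, changed least, at 557.0, 504.5 and 515.0 CPM at 12 h, against 647.7, 642.7 and 678.4 CPM at 0 h (−0.32, SE 0.058). Of 11 non-ATPase genes, 11 were lower past the p limit and 6 past both limits, with a median of −0.84.

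All 4 core chaperones were lower past the p limit, 3 of them past both limits, with a median log2 fold change of −0.90. Psmg4 stood at 19.9, 15.6 and 19.7 CPM at 12 h, against 37.7, 36.3 and 35.2 CPM at 0 h (−0.98, SE 0.092), and Psmg3, the least changed, at 13.0, 14.7 and 13.4 CPM at 12 h, against 22.5, 19.5 and 22.5 CPM at 0 h (−0.64, SE 0.093). Of the 3 cap chaperones, 2 were lower past the p limit. Psmd5 stood at 81.7, 77.0 and 72.0 CPM at 12 h, against 184.0, 176.0 and 191.1 CPM at 0 h (−1.25, SE 0.063), and Psmd9 had a log2 fold change of −0.27 (SE 0.071). Psmd10, known as gankyrin, stood at 33.9, 30.7 and 33.97 CPM at 12 h, against 32.7, 28.4 and 31.8 CPM at 0 h (0.08, SE 0.078, limma adjusted p = 0.321), and its groups overlapped.

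The activators and the inhibitor had no common direction, with a median log2 fold change of −0.05: 3 were lower and 3 higher past the p limit. Psme3, the nuclear activator, stood at 145.1, 142.0 and 144.4 CPM at 12 h, against 260.6, 267.1 and 255.2 CPM at 0 h (−0.86, SE 0.055). Psme1, the alpha chain of the interferon-inducible activator, stood at 41.4, 34.3 and 39.4 CPM at 12 h, against 48.4, 46.95 and 46.4 CPM at 0 h (−0.30, SE 0.075). Psme2, its beta chain, stood at 33.6, 30.6 and 28.9 CPM at 12 h, against 25.2, 20.7 and 25.8 CPM at 0 h (0.38, SE 0.092, limma adjusted p = 0.0011). The near-identical Psme2b (0.21) and Psmf1, a protein that binds and inhibits the core in vitro (0.24), were the other 2 higher ones. Together with Psmc3ip, at 62.5, 57.5 and 63.5 CPM at 12 h, against 31.3, 31.5 and 32.9 CPM at 0 h (0.93, SE 0.068), they make up the 4 higher genes. Leaving out any 1 library gave 2 or 3 instead of 4, with 2 when replicate 1 or replicate 3 at 0 h was left out. The count was 2 without limma's variance trend and robust option, and 1 with each library centred on its median.

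The step after 4 h was compared directly. At 12 h against 4 h in Trim24-expressing cells, 18 of 48 genes were lower past both limits, against 14.7% of all tested genes, and 1 was higher, against 22.2% of all tested genes; limma-voom gave the same counts. The median log2 fold change was −0.68, against 0.06 over all tested genes, and the lowest values were Psmd3 (−1.89), Psmb10 (−1.41), Psmg4 (−1.10), Psmc4 (−1.06), Psma6 (−1.02) and Psmc5 (−1.01). Psma6 stood at 127.4, 102.7 and 104.7 CPM at 12 h, against 225.0, 227.6 and 224.1 CPM at 4 h. Its 12 h values lay below each of its 4 h values.

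Genes that act with the proteasome but have other names were followed at 12 h from lists fixed by function, and their counts past the p limit stand beside 40.1% of all tested genes higher and 38.0% lower. Of 9 tested proteasome genes with other names, 5 were lower past the p limit and 4 past both limits, and 0 were higher: the deubiquitinase Usp14 (log2 fold change −1.16), the ligase Ube3c (−0.93), the ubiquitin receptor Adrm1 (−0.84) and Akirin2 (−0.82), which imports proteasomes into the nucleus in human cells. Pomp, the core maturation factor, was at −0.02 and did not pass. Of 11 genes for ubiquitin and for shuttle factors, 10 were lower past the p limit, 6 of them past both limits, with the shuttle factor Rad23b at −1.91 and the ubiquitin gene Ubb at −0.999. Of 11 genes that regulate proteasome genes, 4 were higher and 5 lower past the p limit. Nfe2l1 itself was at −0.28 (limma adjusted p = 0.00019), Nfe2l2 at 0.93, and the NF-Y subunits at 0.99 (Nfyb), −1.45 (Nfyc) and −0.26 (Nfya). Of 7 genes of the MHC class I pathway, which presents proteasome products, 4 were higher and 2 lower past the p limit, among them Nlrc5 (5.92), Tap1 (5.12), Tap2 (2.45) and Irf1 (−2.38). All 3 p53 targets checked, Mdm2 (2.69), Ccng1 (1.78) and Cdkn1a (1.69), were higher past both limits.

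Markers of cell identity were followed in the same cells. Of the 7 stem cell markers, 4 were lower past the p limit at 2 h, with a median log2 fold change of −0.35. The share of all tested genes lower by that rule cannot exceed 28.5%, the share with an unadjusted p below 0.05 in either direction. At 4 h 5 markers were lower past both limits, with a median of −1.16, against 18.7% of all tested genes past both limits in either direction. The markers were thus lower at times when few proteasome mRNAs were. At 12 h all 7 were lower past the p limit, against 38.0% of all tested genes, and 6 past both limits, against 22.9%. Their median log2 fold change was −4.16, with Nanog at −6.18. Together the 7 markers summed to 3871 to 4047 CPM at 2 h, 2693 to 2783 CPM at 4 h, 1357 to 1478 CPM at 8 h and 965 to 1075 CPM at 12 h, against 4800 to 4868 CPM at 0 h. Of 5 tested markers of fibroblasts or feeder cells 3 were higher past the p limit, against 40.1% of all tested genes. Col1a1 stood at 27.4 CPM at 12 h, against 0.800 CPM at 0 h, and Lum was at 0 in every 0 h library. The 6 markers summed to 45.0 to 56.7 CPM at 12 h, against 15.5 to 18.5 CPM at 0 h. Most of the rise in this sum was in Col1a1, so it does not show a shared shift of the list. What part these shifts had in the proteasome mRNA levels was not tested.

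The next question was what removing Trim24 did to these mRNAs. In the time course 0 genes passed both limits at any time, by limma or limma-voom, against 0.338% of all tested genes at 2 h, 1.15% at 4 h, 1.58% at 8 h and 4.11% at 12 h. Past the p limit alone 0 genes passed at 2, 4 and 8 h, where the lowest limma adjusted p-values were 0.728, 0.049 and 0.0365. With an unadjusted p below 0.05, 0 genes were higher at 2, 4 and 8 h, 0 lower at 2 h, 4 lower at 4 h and 3 lower at 8 h, against 7.52%, 24.9% and 22.7% of all tested genes in either direction at 2, 4 and 8 h. At 8 h median centring and total-read scaling each gave 1 lower gene past the p limit instead of 0. In uninduced cells 0 of 47 genes passed either rule, by limma or by limma-voom for both limits, against 0.0781% of all tested genes past both limits, and with an unadjusted p below 0.05, 2 were higher and 0 lower, against 7.81% of all tested genes in either direction. Median log2 fold changes of the proteasome genes were between −0.07 and 0.04 in all 5 comparisons.

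Psmb5 shows how close the groups were. At 12 h it stood at 38.7, 41.6 and 37.2 CPM with Trim24 degraded, against 38.7, 41.0 and 36.4 CPM in Trim24-expressing cells. At 4 h it stood at 76.2, 66.2 and 76.7 CPM with Trim24 degraded, against 80.7, 72.8 and 77.8 CPM in Trim24-expressing cells. Both pairs of groups overlapped. Psmb10 gave 16.2, 18.8 and 16.8 CPM with Trim24 degraded, against 18.5, 17.4 and 15.2 CPM in Trim24-expressing cells at 12 h, and Psmd4 gave 135.6, 159.3 and 140.0 CPM, against 144.0, 138.6 and 135.9 CPM. For the 48 genes summed, the degraded libraries gave 5849, 6280 and 6021 CPM at 12 h, against 6739, 6136 and 6121 CPM in Trim24-expressing cells, again overlapping.

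At 12 h 3 genes were lower past the p limit alone, against 11.5% of all tested genes. The lid subunit Psmd11 stood at 83.3, 85.3 and 86.3 CPM with Trim24 degraded, against 104.4, 115.6 and 94.2 CPM in Trim24-expressing cells (log2 fold change −0.30, SE 0.071, limma adjusted p = 0.00257). The lid subunit Psmd12 (−0.24) and Psmc1 (−0.24) were the others. The groups did not overlap in any of the 3, but these genes were picked by the test, so this adds no support of its own. The count depends on the settings and on single libraries. It was 0 with total-read scaling, with quantile normalization, with no filter and without the variance trend. Under total-read scaling 2 genes were higher, and under quantile normalization 4. It was also 0 without degraded replicate 1 or 2, and 1 without degraded replicate 3, Trim24-expressing replicate 1 or Trim24-expressing replicate 3; without degraded replicate 3, 1 gene was higher. With an unadjusted p below 0.05, 2 genes were higher and 12 lower, against 41.5% of all tested genes in either direction.

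One gene had an effect of Trim24 loss that differed between times. For Psmg4, a core chaperone, degraded minus expressed was 0.29 at 12 h and −0.14 at 4 h, a difference of 0.43 (SE 0.115, limma adjusted p = 0.00769), while 12.0% of all tested genes differed in either direction. Its levels were 21.9, 23.5 and 22.0 CPM with Trim24 degraded, against 19.9, 15.6 and 19.7 CPM in Trim24-expressing cells at 12 h, and 36.0, 35.4 and 36.5 CPM, against 39.4, 40.5 and 39.1 CPM at 4 h. The degraded values lay above the others at 12 h and below them at 4 h, but neither effect passed the p limit by itself. At 2 h and at 8 h minus 4 h, 0 genes differed by limma, and with an unadjusted p below 0.05 it was 1 higher and 0 lower at 2 h and 0 higher and 2 lower at 8 h; limma-voom was not run on these differences.

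The RING-domain experiment asked whether the ligase activity of Trim24 matters after 4 h of p53 activation. In it degradation went with slightly higher proteasome mRNAs and the ligase-null form with slightly lower ones. The ligase-null cells were a separate picked clone. In both comparisons that use them, the mutation cannot be told apart from differences between clones. No gene passed both limits in any of the 3 comparisons: limma and limma-voom called 0 of 48, against 1.15% of all tested genes for degraded against expressed, 6.95% for ligase-null against expressed and 6.68% for ligase-null against degraded. Past the p limit alone, 18 genes were higher and 0 lower on degradation, against 9.86% of all tested genes higher. In ligase-null against Trim24-expressing cells 20 were lower and 0 higher, against 15.6% of all tested genes lower, and in ligase-null against degraded cells 40 were lower and 0 higher, against 23.3% of all tested genes lower. With an unadjusted p below 0.05, 33 were higher and 1 lower on degradation, against 33.3% of all tested genes in either direction. The same counts were 0 higher and 30 lower in ligase-null against Trim24-expressing cells (45.9% of all tested genes) and 0 higher and 44 lower in ligase-null against degraded cells (54.5%). Median log2 fold changes were 0.17, −0.17 and −0.35, beside 0.02, −0.02 and −0.05 over all tested genes. The first pair of comparisons share the Trim24-expressing libraries.

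These calls are of small differences, and the test settings matter. Without limma's variance trend and robust option 3 genes were higher on degradation and 4 lower in ligase-null cells. Quantile normalization and total-read scaling each gave 14 higher and 2 lower on degradation. Leaving out 1 library gave 12 to 22 higher genes on degradation instead of 18, with 12 when degraded replicate 4 was left out. For ligase-null against degraded cells it gave 33 to 43 lower genes instead of 40. In ligase-null against Trim24-expressing cells the count was 32 without ligase-null replicate 1. It was 13 without ligase-null replicate 4 or without Trim24-expressing replicate 5. Depth and scaling differed between the groups: degraded libraries held 24492233 to 33893100 reads with TMM factors of 0.92 to 0.95, ligase-null libraries 18345070 to 22360998 reads with factors of 0.96 to 1.05, and Trim24-expressing libraries 16669410 to 21072810 reads with factors of 0.97 to 1.03. What part these had in the differences was not tested. Ligase-null replicate 1 had a TMM factor of 0.96 and summed to 10068 CPM over the 48 genes, apart from its 3 fellows at 8791, 8844 and 9066 CPM. The degraded libraries summed to 12142, 11457, 11812 and 11334 CPM, and the Trim24-expressing ones to 10704, 10582, 10357 and 9784 CPM. As a share of all reads these sums were 1.08 to 1.12% in degraded, 0.921 to 0.966% in ligase-null and 1.00 to 1.04% in Trim24-expressing libraries, without overlap.

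**Figure D5:**
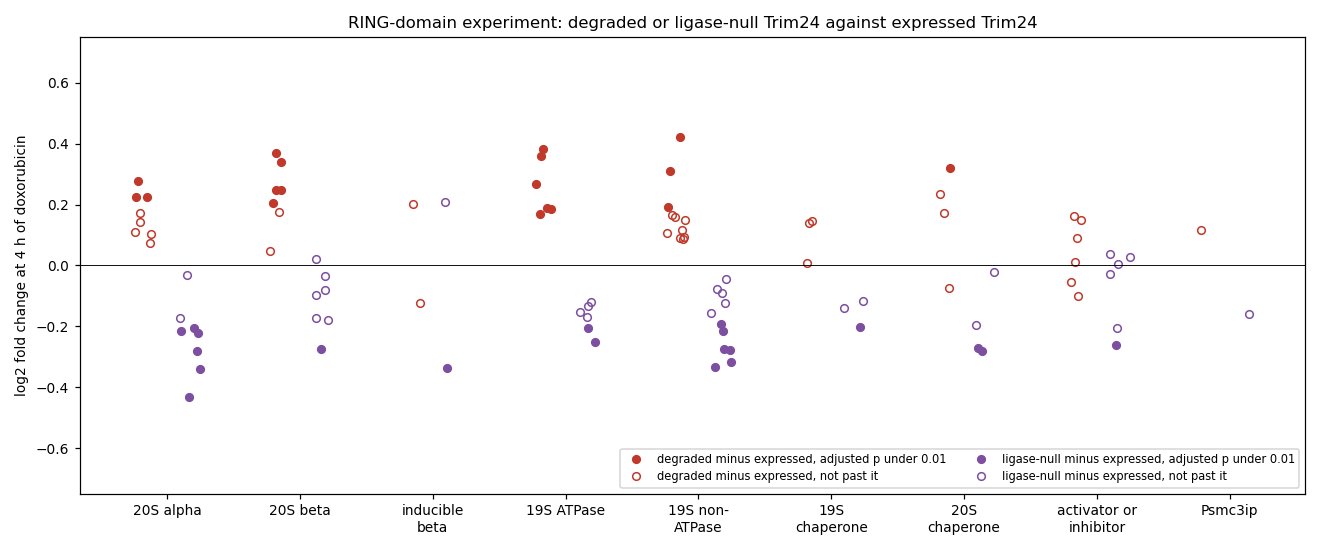
Log2 fold change after 4 h of doxorubicin in the RING-domain experiment for each proteasome-named gene, by role, for degraded minus Trim24-expressing (red) and ligase-null minus Trim24-expressing cells (purple), 4 libraries per group; filled points pass the p limit and open points do not. Most red points lie above 0 and most purple points below 0, all within 0.75 of it, and the 6 ATPase genes are filled on degradation.

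On degradation the ATPase ring and the beta ring held most of the calls. All 6 ATPase genes and 5 of 7 constitutive beta genes were higher past the p limit, with 3 of 8 alpha genes, 3 of 11 non-ATPase genes and 1 of 4 core chaperones; no cap chaperone, activator, inhibitor or inducible subunit was. Psmd7 had the largest fold change, at 246.6, 233.3, 264.4 and 255.2 CPM in degraded cells, against 191.5, 182.7, 177.7 and 193.5 CPM in Trim24-expressing cells (log2 fold change 0.42, SE 0.048, limma adjusted p = 2.12e-08). Psmc5 stood at 409.1, 377.5, 403.4 and 365.9 CPM in degraded cells, against 311.8, 304.4, 296.0 and 281.2 CPM in Trim24-expressing cells (0.38, SE 0.047). In both genes every degraded library lay above every Trim24-expressing one. Psmb5 stood at 107.1, 94.0, 101.6 and 90.1 CPM in degraded cells, against 81.5, 79.7, 78.4 and 64.6 CPM in Trim24-expressing cells (0.37, SE 0.065). Psmb6 stood at 673.1, 647.1, 657.6 and 679.6 CPM, against 574.8, 517.1, 533.9 and 478.0 CPM (0.34, SE 0.047). Psmb7 had a log2 fold change of 0.25 (SE 0.049), and its groups, like those of Psmb5 and Psmb6, did not overlap. These statements on overlap describe named genes, with no share of all tested genes beside them. Psmd4 stood at 341.5, 305.9, 306.6 and 302.7 CPM in degraded cells, against 276.2, 258.1, 247.3 and 232.7 CPM in Trim24-expressing cells (0.31, SE 0.051), also without overlap. Psmb10 (0.20, SE 0.065), Psme2 (0.15, SE 0.069) and Psme1 (0.09, SE 0.056) did not pass.

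In ligase-null cells the alpha ring led. In all, 6 of 8 alpha genes and 6 of 11 non-ATPase genes were lower past the p limit, with 2 of 6 ATPase genes, 2 of 4 core chaperones, and 1 each of the constitutive beta genes, the cap chaperones, the activators and the inducible subunits. Psma4 stood at 191.6, 178.4, 167.1 and 175.9 CPM in ligase-null cells, against 248.0, 243.4, 233.1 and 236.1 CPM in Trim24-expressing cells (log2 fold change −0.43, SE 0.054, limma adjusted p = 8.91e-08), and all ligase-null values lay below the others. Psmb10 stood at 35.2, 30.8, 27.7 and 30.3 CPM, against 43.2, 40.2, 38.6 and 35.0 CPM (−0.34, SE 0.076), and its groups overlapped. Psmb5 (0.02, SE 0.083), Psmb6 (−0.10, SE 0.071), Psmb7 (−0.08, SE 0.056), Psmd4 (−0.12, SE 0.060), Psme1 (−0.03, SE 0.062) and Psme2 (0.03, SE 0.085) did not pass. Ligase-null against degraded cells gave the widest gap, with Psma4 at −0.66 (SE 0.054), Psmg4 at −0.59 (SE 0.070), Psmd7 at −0.58 (SE 0.101) and Psmb10 at −0.54 (SE 0.070). Psmg4 stood at 36.7, 31.1, 35.7 and 32.1 CPM in ligase-null cells, against 54.1, 48.3, 56.5 and 46.0 CPM in degraded cells, without overlap.

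Degradation at 4 h was measured in the time course and in the RING-domain experiment, and the effects were compared by a limma contrast chosen after seeing the data. The effect was larger in the RING-domain experiment for 9 of 48 genes and smaller for 0, against 1.57% of all tested genes that differed in either direction. The 9 were Psmd7 (difference 0.46), Psmg4 (0.46), Psmb5 (0.45), Psmc5 (0.42), Psma7 (0.33), Psmb6 (0.32), Psmd4 (0.32), Psmc2 (0.31) and Psmc3 (0.30), with limma adjusted p-values of 9.77e-05 to 0.00874. The median difference over the 48 genes was 0.16, and over all tested genes 0.02. The 2 experiments thus gave different values for the same treatment and time, and the experiment and its libraries cannot be told apart from that difference.

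Markers of cell identity in the RING-domain experiment were as follows. The 7 stem cell markers summed to 2446 to 2572 CPM in degraded, 2336 to 2706 CPM in ligase-null and 2387 to 2694 CPM in Trim24-expressing libraries. Of the 7, 4 were lower on degradation past the p limit. The share of all tested genes lower by that rule was not set beside it. It cannot exceed 33.3%, the share with an unadjusted p below 0.05 in either direction. The 6 fibroblast or feeder markers summed to 20.1 to 21.5 CPM in degraded, 8.25 to 10.3 CPM in ligase-null and 20.2 to 23.7 CPM in Trim24-expressing libraries, with Thy1 at a log2 fold change of −1.55 in ligase-null cells. Among the listed partners, 3 of 9 proteasome genes with other names (Sem1 at 0.45, Uchl5 at 0.29 and Usp14 at 0.26), 5 of 11 regulators and 2 of 11 genes for ubiquitin and for shuttle factors were higher on degradation past the p limit and 0 lower, beside 9.86% of all tested genes higher. The regulators included the Nfe2l1-processing enzyme Ngly1 (0.71) and the NF-Y subunit Nfya (0.30). In ligase-null against Trim24-expressing cells 3 of 9 proteasome genes with other names (Uchl5 at −0.33, Txnl1 at −0.25 and Ecpas at −0.20) were lower and 0 higher, beside 15.6% of all tested genes lower and 2007 of 17100 higher. Of the 11 ubiquitin and shuttle genes 5 were lower, Ubb at −0.27 among them, and 1 was higher. Of the regulators 1 was lower and 2 were higher, with Ngly1 at 0.98, and of the MHC class I genes 1 was lower and 2 were higher, with B2m at 1.68. The part of these shifts in the proteasome mRNA levels was not tested.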

How the data were processed

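Per the authors, total RNA was sequenced as stranded libraries, base calls were made with bcl2fastq 2.17 or 2.20, reads were aligned to mm10 with STAR, with multimapping reads placed at random, counted over protein-coding GENCODE genes with featureCounts, scaled by TMM in edgeR and deposited as log2 CPM with a prior count of 8, 1 table per experiment and 4 in all. The prior and the TMM factors could be undone: 100% of values gave whole reads within 0.01. The strand setting is not given in the sources used here.

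The deposited log2 CPM values were tested with limma 3.58.1 (R 4.3.3; trend and robust) on the 2 groups compared, p adjusted by Benjamini-Hochberg over all genes that lay 0.5 or more above the table floor of −1.48 in enough libraries to fill the smaller group. The p limit was 0.01 and the fold limit 0.75 on the log2 scale, in either direction. A CPM in the text is the deposited value without its prior. limma-voom on the recovered reads was an alternative to it, and called 5173 genes higher and 3868 lower at 12 h against 0 h. Other alternatives were quantile normalization, median centring, no filter, a stricter filter (1.5), no trend, all groups in 1 fit, a replicate block and leaving out each library. Total-read scaling and the tests of differences between effects were chosen after seeing the data. The code was tested on simulated data.

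Members and lists were chosen with earlier results of these data known. Values are given for up to 6 members past both limits per comparison, the extremes of each role at 12 h, and Psmb5, Psmb6, Psmb7, Psmb10, Psme1, Psme2 and Psmd4; others named (such as Psma8, Psmd7, Psmd11 and Psmd5 in WT cells) were chosen after their values were seen. Same-numbered libraries did not pair throughout: the correlations of their deviations ran from −0.283 to 0.183 over all comparisons. On degradation in the RING-domain experiment, 3 of 4 degraded libraries correlated best with their own number (r −0.047 to 0.133).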

Additional observations from a re-analysis of the deposited data

Results flagged for a closer look

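Psmd4 in RING-domain degraded replicate 4 stood at 341.5 CPM, apart from the 302.7 to 306.6 CPM of the other 3 libraries of the group. The gap to the nearest library was 0.898 of the whole range, above Dixon's limit for a group of 4, and it was the 1 such value among 39 checked, where chance gives about 5%.

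The effect of Trim24 degradation on Psmg4 at 12 h minus its effect at 4 h was 0.43 on the log2 scale (limma adjusted p = 0.00769). In that contrast 12.0% of all tested genes differed in either direction, and neither Psmg4 effect passed the p limit by itself. The effect at 4 h in the RING-domain experiment minus that in the time course was past the threshold for 9 of 48 genes, against 1.57% of all tested genes in either direction. The 9 were Psma7 (0.33), Psmb5 (0.45), Psmb6 (0.32), Psmc2 (0.31), Psmc3 (0.30), Psmc5 (0.42), Psmd4 (0.32), Psmd7 (0.46) and Psmg4 (0.46).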

How the results depend on the processing

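Genes past both limits were found on activation at 8 h, 12 h and 12 h against 4 h, and of 45 alternatives to their counts above 0, 35 were within 1.5 times. At 8 h the 9 lower genes became 3 with quantile normalization, 16 with median centring and 2 with total-read scaling, and the 0 higher became 1 with total-read scaling. At 12 h the 23 lower became 10 with quantile normalization and 5 with total-read scaling, and the 1 higher became 0 with median centring. At 12 h against 4 h the 18 lower became 9 with quantile normalization, 29 with median centring and 7 with total-read scaling, and the 1 higher became 0 with median centring. The cause was not tested. No value past both limits changed direction. Leaving out 1 library gave 8 to 12 lower at 8 h, 21 to 24 at 12 h and 17 to 22 at 12 h against 4 h. With the replicate block, which rests on numbers that do not pair the libraries throughout, 23 genes were lower past both limits at 12 h. In the RING-domain experiment 27 instead of 18 were then higher on degradation past the p limit alone. Under the block 2 genes instead of 0 were lower past the p limit on degradation at 4 h, where each library correlated best with its own number (r 0.017 to 0.142), and 2 instead of 0 in activated WT cells. No paired fit was made for ligase-null against degraded or Trim24-expressing cells, which share only number 4. Single genes were followed for a chosen set of members in every comparison and for all members at 12 h. Of these values, 2722 stayed on their side of the threshold, 52 fell short and 22 newly passed. Most of those that stayed were not past both limits to begin with. All 52 that fell short came from activation at 8 h, 12 h or 12 h against 4 h, under quantile normalization, total-read scaling or median centring. At these depths levels under about 1 CPM, such as those of Psmb11 and Psmb8, rest on few reads.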
